A study of Homo sapiens with 8 samples.

Results

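Mesenchymal stromal cells held for 1 h before freezing in DMSO were compared with cells frozen in DMSO after 0 h, from 2 of the 8 libraries of the series. Entries of the gene table with a count of at least 100 in at least 1 of these libraries were compared, which gave 12014 of 23354. The cells came from H9 human embryonic stem cells, an established line, and were used between passages 8 and 12. Both libraries came from vials mixed with DMSO (dimethyl sulfoxide, a small cryoprotectant that enters cells), left at room temperature for the hold, cooled at 1 °C per minute and thawed in a warm bath. They differ in the hold time only, as far as the labels and the design text say. The other libraries were of fresh cells at 0 h, fresh cells after 1 h with DMSO, fresh cells after 1 h in medium, and cells cooled at 3 °C per minute in osmolyte solutions labelled SGC (1 h), SGI (1 h) and SMC (2 h).

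Immediate early genes, many of which encode transcription factors, begin to be transcribed within minutes of a stimulus, with no need for new protein. Their RNAs are short-lived. Long noncoding RNAs carry no long reading frame, and some are the precursors from which microRNAs are cut. RNA polymerase can run on past the end of a gene, as is known in cells under osmotic or heat stress. Reads from such run-on RNA can be counted in a weakly expressed neighbour.

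Levels are in CPM, which are counts relative to a library size scaled over all 8 libraries. Counts summed to 47299694 in the 1 h library and 51166666 in the 0 h library. Each side was 1 library, so no difference below has a replicate check and no p-value is given. Intervals are exact 95% intervals of a ratio of counts and cover counting error only. An entry was counted as higher or lower when its CPM differed by at least 1.5-fold on a log2 scale with a prior count of 2.

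Few entries differed by that much. At 1 h, 90 entries were higher (0.749% of 12014) and 56 were lower (0.466%), 146 in all (1.22%). A difference of at least 2-fold was met by 10 higher entries (0.0832%) and 3 lower ones (0.025%). Within 1.2-fold lay 86.9% of entries, and the log2 ratio had a median of -0.01 and an SD of 0.19 across entries. The counting interval excluded a ratio of 1 for 140 of the 146. The 146 were picked by the ratio of these same counts, so the interval is no separate check of them. The balance of higher and lower entries depended on scaling. It was 90 to 56 (61.6% higher), 69 to 68 (50.4%) with library totals alone, and 39 to 50 (43.8%) after centring on GC content. As a yardstick from another pair of single libraries, SGC and SGI differed by at least 1.5-fold in 148 of 12245 entries (1.21%), with 52 higher (0.425%) and 96 lower (0.784%) in SGC.

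Most of the 146 were weakly expressed. Among 2669 entries whose higher count was 100 to under 500, 79 were higher (2.96%) and 48 lower (1.80%). Among 4823 entries with a higher count of 2000 or more, 0 were higher and 4 were lower: EGR1, FOS, FOSB and DNM3OS. Between these lay 4522 entries with 11 higher and 4 lower. The plot of log2 ratio against count shows these 4 genes apart from the narrow band of well expressed entries. Of the 90 higher entries 26, and of the 56 lower entries 33, reached a count of 100 in only 1 of the 2 libraries and were compared through their higher side alone.

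**Figure D1:**
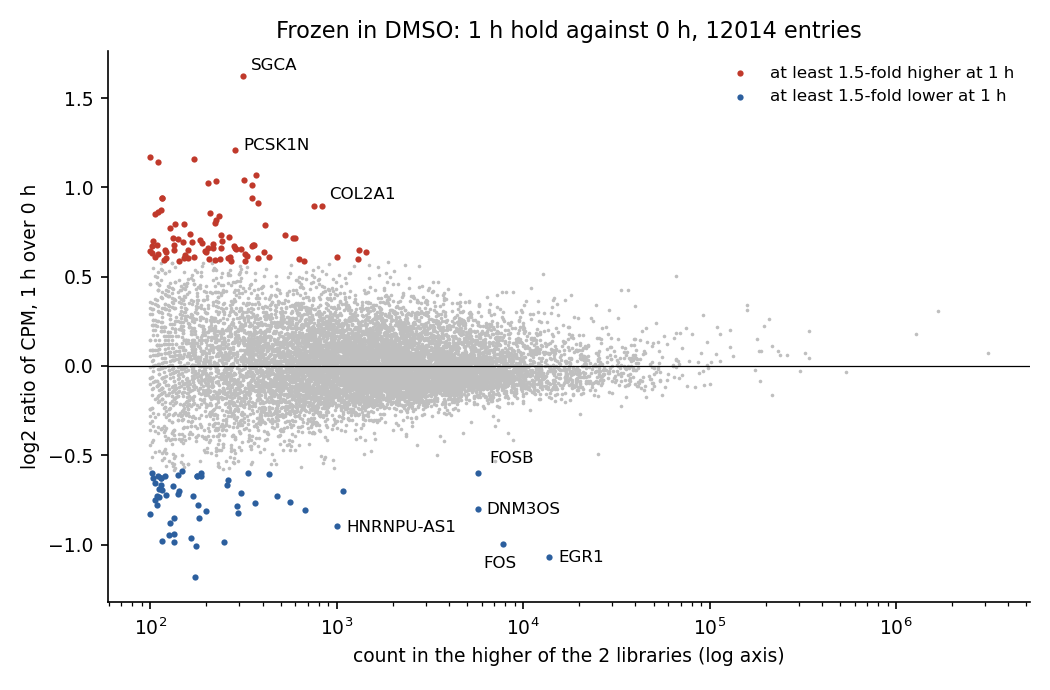
Log2 ratio of CPM, 1 h over 0 h frozen in DMSO, against the count in the higher of the 2 libraries on a log axis, with 1 point for each of 12014 entries. Red points are the 90 entries at least 1.5-fold higher at 1 h and blue points the 56 at least 1.5-fold lower. EGR1, FOS, FOSB and DNM3OS are the blue points of highest count.

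The lower entries of highest count were immediate early transcription factors. EGR1, a zinc finger factor induced by growth factors and stress (chromosome 5, 137801181 to 137805004 in hg19), had a count of 13818 at 0 h and 5940 at 1 h. Its level was 276 CPM at 0 h and 131 CPM at 1 h, 2.10-fold lower (interval 2.01 to 2.19). FOS, which pairs with JUN proteins to form the AP-1 factor (chromosome 14, 75745481 to 75748937), was at 156 CPM and 77.8 CPM, 2.00-fold lower (1.89 to 2.12). Its paralog FOSB was at 114 and 75.1 CPM, 1.52-fold lower (1.43 to 1.61). EGR3, a weaker paralog of EGR1, had counts of 186 and 110, or 3.71 and 2.43 CPM, 1.53-fold lower (1.08 to 2.17). In bulk RNA, fewer cells of a kind and less RNA per cell cannot be told apart.

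These 4 were the only members past 1.5-fold among 26 compared of a list of 30 immediate early genes. For the list, 0 were higher and 4 lower (against 0.749% and 0.466% of all entries), and the median log2 ratio was 0.01, against -0.01 over all entries. That median was -0.03 with library totals and -0.07 after centring on GC content. The other AP-1 members stayed within 1.5-fold. JUN was at 257 CPM at 0 h and 245 at 1 h, JUNB at 43.4 and 53.2, JUND at 50.4 and 67.8, FOSL1 at 35.9 and 39.2, and FOSL2 at 139 and 148. The early factors ATF3, at 6.26 and 6.41 CPM, and KLF10, at 70.8 and 71.1 CPM, also differed little. ZFP36, whose protein binds AU-rich RNA and shortens its life, was at 22.9 CPM at 0 h and 18.7 at 1 h, a log2 ratio of -0.29. The JUN family, whose proteins pair with FOS and FOSB, thus stayed within 1.5-fold.

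The 3 promoters are shown because these genes are the most abundant that were lower. Each is the 250 bases before the start of transcription in RefSeq on GRCh38.p14, 5′ to 3′ on the gene's strand: chr5:138465229-138465478 for EGR1, chr14:75278578-75278827 for FOS and chr19:45467746-45467995 for FOSB, all on the plus strand. Capitals mark TGACGT on either strand, the core of the element bound by CREB and ATF proteins, and in EGR1 also CArG boxes, the 10-base element bound by serum response factor.
EGR1: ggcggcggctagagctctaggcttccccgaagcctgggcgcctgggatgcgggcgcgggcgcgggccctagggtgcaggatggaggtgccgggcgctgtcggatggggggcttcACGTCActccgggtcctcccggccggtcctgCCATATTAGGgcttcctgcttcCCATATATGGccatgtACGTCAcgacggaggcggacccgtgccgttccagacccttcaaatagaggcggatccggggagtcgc
FOS: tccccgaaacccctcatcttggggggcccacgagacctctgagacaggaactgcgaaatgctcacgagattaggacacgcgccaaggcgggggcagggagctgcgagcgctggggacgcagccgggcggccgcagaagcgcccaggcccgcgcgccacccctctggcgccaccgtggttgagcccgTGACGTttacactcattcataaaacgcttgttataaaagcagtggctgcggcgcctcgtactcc
FOSB: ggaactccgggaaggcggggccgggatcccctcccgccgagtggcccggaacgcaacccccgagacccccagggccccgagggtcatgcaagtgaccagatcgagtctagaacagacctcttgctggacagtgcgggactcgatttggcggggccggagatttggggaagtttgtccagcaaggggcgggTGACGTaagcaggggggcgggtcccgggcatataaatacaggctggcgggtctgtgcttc

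EGR1 holds 2 TGACGT matches and 2 CArG boxes in this window, and FOS and FOSB hold 1 TGACGT match each and 0 CArG boxes. Of 35116 RefSeq promoters of this length, 7.1% hold TGACGT on either strand and 1.16% hold a CArG box. The 2 motifs do not overlap in these windows. Of 19 compared immediate early genes with a promoter in the table, 6 hold TGACGT. They include JUND (3 matches), MAFF and FOSL2, whose log2 ratios were 0.43, 0.01 and 0.10. A CArG box was found for 2 of the 19, EGR1 and SRF, and SRF had a log2 ratio of 0.10. A match is a description of the letters, not of binding.

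Over all 8 libraries EGR1, FOS and FOSB were lowest in the 2 held for 1 h with DMSO, fresh and frozen. EGR1 was at 624 CPM in fresh 0 h cells, 1301 after 1 h in medium and 144 after 1 h with DMSO, and at 246 to 410 CPM in the 3 osmolyte libraries. FOS was at 532, 734 and 72.6 CPM in the same fresh libraries and at 122 to 428 CPM in the osmolyte ones. FOSB was at 425, 908 and 62.0 CPM, and at 80.3 to 254 CPM. For EGR1 the library held 1 h in DMSO and frozen was the lowest of the 8. For FOS and FOSB it was the second lowest, above fresh cells after 1 h with DMSO. EGR3 stood apart from this order: its fresh levels were 24.1, 49.2 and 5.90 CPM, and all 5 frozen libraries lay between 2.43 and 3.76 CPM. The plot of the lower entries by library shows the frozen 1 h DMSO point next to the fresh 1 h DMSO point for EGR1, FOS, FOSB and DNM3OS.

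**Figure D2:**
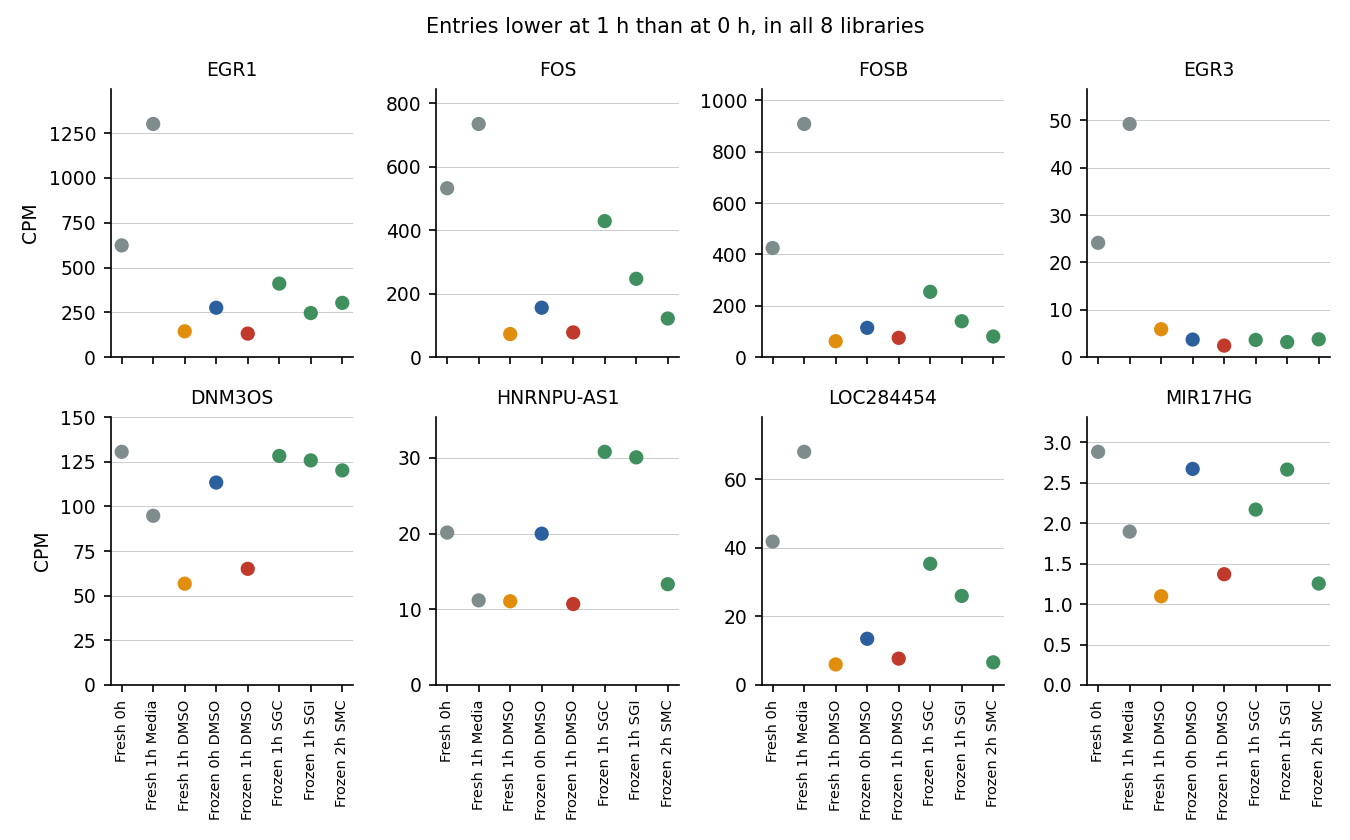
CPM of 8 entries that were lower at 1 h than at 0 h, with 1 point for each of the 8 libraries: fresh without DMSO in grey, fresh 1 h DMSO in orange, frozen 0 h DMSO in blue, frozen 1 h DMSO in red, osmolyte solutions in green. EGR1 was at 276 CPM in the blue point and 131 in the red, and DNM3OS at 113 and 65.1.

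Fresh cells held for 1 h with DMSO, set against fresh 0 h cells, give a separate pair that shares no library with the frozen one. In that pair 163 of 11937 entries were at least 1.5-fold lower (1.37%) and 49 were higher (0.41%), 212 in all (1.78%). Of the 56 entries lower after the hold in frozen cells, 21 (37.5%) were also lower in the fresh DMSO pair, where 148 of the 12014 entries were lower (1.23%), so 14.2% of those were shared. None of the 56 was higher there. Of the 90 higher entries, 8 (8.89%) were higher in the fresh DMSO pair and 5 were lower, with 42 of 12014 higher there (0.35%), of which 19% were shared. The 21 shared lower entries included EGR1, FOS, FOSB, EGR3, DNM3OS, HNRNPU-AS1, LOC284454, MIR17HG and EPB41L4A. The 8 shared higher ones were SGCA, MIR612, LOC100505576, GADD45B, ADAMTSL4, TNS4, SEMA4A and HIST3H2A. These names come from all entries past the fold in both pairs and were chosen after their values were seen. The 2 pairs differed over the immediate early list, whose median log2 ratio was -0.98 in the fresh DMSO pair and 0.01 in the frozen pair. In fresh cells after 1 h in medium, against fresh 0 h cells, the median of that list was 0.69.

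The pair of fresh 1 h medium and fresh 0 h uses the same 0 h library as the fresh DMSO pair. It had 207 of 11916 entries lower (1.74%) and 115 higher (0.965%), 322 in all (2.7%). Of the 56 entries lower in frozen cells, 13 (23.2%) were lower in medium and 5 were higher: EGR1, EGR3, FOSB, LOC284454 and CCR7. Of the 90 higher entries, 6 were higher in medium and 4 lower, SGCA among the latter. EGR1, for example, had a log2 ratio of -1.07 after the hold in frozen cells, -2.12 in fresh cells with DMSO and 1.06 in fresh cells in medium. HNRNPU-AS1 was lower in all 3, with log2 ratios of -0.90, -0.86 and -0.85.

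Long noncoding RNAs made up 18 of the 56 lower entries. Of 321 entries annotated as long noncoding, these 18 were lower (5.61%, against 0.466% of all entries) and 2 were higher (0.623%, against 0.749%). Of 11423 protein-coding entries, 29 were lower (0.254%) and 85 higher (0.744%). Of the 18, 9 reached a count of 100 at 0 h only, where they were high, so they passed the minimum only through their higher side. Among entries with at least 100 in both libraries, 9 of 286 long noncoding ones were lower (3.15%), against 23 of all 11763 (0.196%). By level, 16 of the 18 had a higher count from 100 to under 500, where 6.69% of 239 long noncoding entries and 1.8% of all entries were lower. The remaining 2, DNM3OS and LOC284454, were among 82 long noncoding entries with a count of 500 or more (2.44%, against 0.0856% of all entries). The median log2 ratio of the long noncoding entries was -0.10, and -0.10 after centring on GC content. The 2 higher ones were C5orf55 and SEPT5-GP1BB. This class was looked at after the values were seen. Several of its members overlap another gene on the other strand, such as LOC100130557 in NFYC and LOC100128191 in TMPO. The strand setting of the counting is not given in the sources used here, so reads of such partners cannot be told apart.

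DNM3OS had the lowest ratio of them at high count. It is transcribed from the strand opposite to an intron of DNM3 (chromosome 1, 172107724 to 172113975 in hg19) and is the precursor of miR-199a and miR-214, which are known in mesenchymal and skeletal development. Its count was 5688 at 0 h and 2946 at 1 h, or 113 and 65.1 CPM, 1.74-fold lower (1.64 to 1.86). In the other libraries it was at 131 CPM in fresh 0 h cells, 94.8 after 1 h in medium and 56.8 after 1 h with DMSO, and at 120 to 128 CPM in the osmolyte solutions. The 2 libraries held for 1 h with DMSO, fresh and frozen, were thus the lowest of the 8, and the frozen 0 h library was within the range of the rest.

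LOC284454, now MIR23AHG, lies on the minus strand of chromosome 19 (13945330 to 13947103 in hg19) beside the cluster of miR-23a, miR-27a and miR-24. As counted, the entry overlaps the hairpin of MIR24-2 at its 5′ start, and the hairpins of miR-27a and miR-23a lie upstream of it. It had counts of 676 and 348, or 13.5 and 7.69 CPM, 1.75-fold lower (1.46 to 2.12). It was at 41.8 CPM in fresh 0 h cells, 68.0 in medium, 5.99 with DMSO, and 6.61 to 35.4 in the osmolyte libraries, with SMC lowest. MIR17HG, the host of the miR-17-92 cluster, which promotes proliferation, had counts of 134 and 62, or 2.67 and 1.37 CPM, 1.95-fold lower (1.26 to 3.09). Its fresh levels were 2.88, 1.896 and 1.097 CPM at 0 h, in medium and with DMSO.

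The mature microRNAs are shown to say which small RNAs lie in DNM3OS and MIR17HG and at the start of LOC284454. They are RefSeq sequences, with the seed (bases 2 to 8) in capitals.
hsa-miR-199a-5p: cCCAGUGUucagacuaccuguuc
hsa-miR-199a-3p: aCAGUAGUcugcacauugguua
hsa-miR-214-3p: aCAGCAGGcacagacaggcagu
hsa-miR-23a-3p: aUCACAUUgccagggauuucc
hsa-miR-27a-3p: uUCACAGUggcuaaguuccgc
hsa-miR-24-3p: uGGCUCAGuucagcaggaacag
hsa-miR-17-5p: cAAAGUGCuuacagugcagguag
hsa-miR-20a-5p: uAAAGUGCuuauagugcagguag
hsa-miR-18a-5p: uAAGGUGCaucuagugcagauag
hsa-miR-19a-3p: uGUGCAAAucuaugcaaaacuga
hsa-miR-19b-3p: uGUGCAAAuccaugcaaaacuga
hsa-miR-92a-3p: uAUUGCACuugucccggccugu

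In MIR17HG, miR-17-5p and miR-20a-5p share the seed AAAGUGC, and miR-19a-3p and miR-19b-3p share GUGCAAA. The other 8 sequences have seeds of their own. The mature forms were not measured here: the hairpin entries of these microRNAs had counts of at most 8 in either library. Over 22 compared entries that are named as microRNA host genes or are long noncoding and overlap a hairpin, chosen after the values were seen, 0 were higher (against 0.749% of all entries) and 3 lower (13.6%), and 17 had a log2 ratio below 0. The share lower was 0.466% over all entries and 5.61% over the long noncoding ones, and 1 of the 3, MIR17HG, reached a count of 100 at 0 h only. Their median log2 ratio was -0.18, and -0.21 after centring on GC content, against -0.01 over all entries. In the fresh pairs it was -0.28 with DMSO and -0.04 in medium. MIR143HG, now CARMN, host of the smooth muscle miR-143 and miR-145, was at 53.8 and 39.7 CPM. MIR22HG was at 71.4 and 54.4 CPM, and MIR100HG at 165 and 127 CPM.

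HNRNPU-AS1 lies 3.36 kb past the end of HNRNPU, which encodes a nuclear scaffold protein. RefSeq now lists this entry under HNRNPU itself, so it was counted as protein-coding above. It overlaps COX20 on the other strand, at 5.30 and 6.41 CPM, and reads of the overlap cannot be told apart. The count of HNRNPU-AS1 was 1002 at 0 h and 484 at 1 h, or 19.98 and 10.69 CPM, 1.87-fold lower (1.60 to 2.19). HNRNPU was at 513 and 502 CPM. The entry was at 20.1 CPM in fresh 0 h cells, 11.2 and 11.1 CPM after 1 h in medium and with DMSO, 30.8 and 30.1 CPM in SGC and SGI, and 13.3 CPM in SMC. Among the fresh and DMSO-frozen libraries, the 3 held for 1 h were thus all lower than the 2 at 0 h, while SGC and SGI, also held for 1 h, were the highest of the 8.

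The other low ratios were those of weak entries. LOC158257, now LINC02603, had the lowest log2 ratio, -1.18, with counts of 174 and 68. ANKAR, with counts of 176 and 78, C12orf76, with 248 and 112, and EPB41L4A, with 166 and 76, were each near 2-fold lower. The entries named for low ratios also held the noncoding LOC100130557 and NS3BP, the gene C8orf80 and the pseudogene ZDHHC8P1, with log2 ratios from -0.88 to -0.99. Among the 8 entries lower with a count of at least 500, chosen after the values were seen, was ZNF780B, a zinc finger gene, at 21.5 and 13.2 CPM (1.63-fold, 1.41 to 1.88). Another was LOC220729, a pseudogene of SDHA now named SDHAP4, at 11.1 and 6.54 CPM. Its reads can be shared with near-identical copies, so its value is uncertain.

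At high count the next lowest ratios did not reach 1.5-fold. VMP1, which acts in the formation of autophagosomes and whose transcript overlaps the gene of miR-21, was at 141 CPM at 0 h and 97.3 at 1 h, 1.45-fold lower (1.37 to 1.53). TTC14 was at 68.3 and 48.3 CPM, and LUC7L3, a splicing factor, at 175 and 132 CPM.

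The highest ratio was that of SGCA, which encodes alpha-sarcoglycan of the muscle dystrophin complex. Its count was 112 at 0 h and 316 at 1 h, or 2.23 and 6.98 CPM, 3.13-fold higher (2.29 to 4.32). The next was PCSK1N, an inhibitor of prohormone convertase 1, with counts of 136 and 286, or 2.71 and 6.32 CPM, 2.33-fold higher (1.73 to 3.16). It was at 7.26 to 9.12 CPM in the osmolyte libraries and 2.51 to 4.13 CPM in the fresh ones, so the 0 h value lay in the fresh range and the 1 h value between the ranges. HES4, a transcriptional repressor downstream of Notch, had counts of 54 and 110, or 1.08 and 2.43 CPM, and was at 4.34 to 6.90 CPM in the osmolyte libraries. RDH14, a retinol dehydrogenase, had counts of 110 and 204, ZNF771 192 and 352, TPGS1 202 and 352, and CCDC107, which overlaps C9orf100, 120 and 224.

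For several of these the 0 h library was the one out of line. ZNF771 was at 3.83 CPM at 0 h frozen in DMSO and at 6.17 to 8.89 CPM in the other 7 libraries. RDH14 was at 2.19 CPM there and at 2.74 to 4.72 in the others, TPGS1 at 4.03 and at 6.89 to 9.95, and CCDC107 at 2.39 and at 3.57 to 5.33. The values of these 4 at 1 h, 7.77, 4.51, 7.77 and 4.95 CPM, lay inside the range of the other libraries. KIAA1683 was also lowest at 0 h, at 1.68 CPM, with 2.70 to 3.80 CPM in the other 7.

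Among the 11 entries higher with a count of at least 500, chosen after the values were seen, were 2 of the matrix. COL2A1, the fibrillar collagen of cartilage, was at 9.85 and 18.4 CPM, 1.87-fold higher (1.59 to 2.19). It was at 13.85 to 16.33 CPM in the fresh libraries and 18.86 in SMC, but at 3.185 and 4.123 in SGC and SGI. Its 1 h value was thus nearer to the fresh ones than its 0 h value. ADAMTSL4, a protein that binds fibrillin microfibrils, was at 8.93 and 16.7 CPM, 1.87-fold higher (1.58 to 2.21). It was at 11.89 CPM in fresh 0 h cells, 12.3 in medium, 19.84 with DMSO and 7.379 to 13.49 in the osmolyte libraries. After centring on GC content both had a log2 ratio of 0.70. The other 9 were within 1.5-fold after that centring. They were GADD45B, a stress-induced growth arrest gene, APOE, the lipid carrier apolipoprotein E, the mitochondrial ribosomal protein gene MRPL41, and ALKBH7, CCDC106, FAM173A, FBXL15, SAMD1 and TRAPPC5. GADD45B was at 20.5 and 31.8 CPM, 1.56-fold higher (1.39 to 1.75). APOE was at 7.78 and 12.8 CPM. MRPL41, FBXL15, ALKBH7, FAM173A, CCDC106 and TRAPPC5 had their lowest value of all libraries at 0 h frozen in DMSO. MRPL41, for example, was at 18.6 CPM there and at 24.4 to 31.3 CPM in the others. GADD45B, APOE and SAMD1 were not lowest there.

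At counts of 2000 or more no entry was 1.5-fold higher. The largest ratios were those of MED16, a subunit of the Mediator complex, at 34.6 and 51.2 CPM (1.48-fold, 1.36 to 1.62), and CCDC85B, at 41.1 and 60.7 CPM (1.48-fold, 1.36 to 1.60). PLEC, the cytoskeletal linker plectin, was at 1031 and 1464 CPM, 1.42-fold higher (1.40 to 1.44). CHPF, an enzyme that extends chondroitin chains, was at 197 and 282 CPM. For MED16, CCDC85B and PLEC the 0 h value was the lowest of all libraries. The other libraries had 40.2 to 57.0, 54.0 to 87.2 and 1215 to 1499 CPM in that order, and the 1 h values lay inside these ranges. For CHPF the 0 h value lay in the range of the fresh libraries, 186 to 226 CPM. The 10 entries named for high ratios at this count had GC contents of 61.3% to 71.6% (CYBA to SCARF2). After centring on GC content their log2 ratios ranged from 0.16 for GPR172A to 0.34 for CYBA, from 0.45 to 0.57 before.

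The log2 ratio followed the GC content of the transcript. GC content was available from GENCODE transcripts for 98.2% of compared entries and 95.2% of the 146. Its median was 62.3% in the higher entries, 44.6% in the lower ones and 48.0% in all. In 5 bins of equal size by GC content the median log2 ratio was -0.09, -0.07, -0.03, 0.05 and 0.19 from the lowest to the highest. The highest bin held 64 higher and 3 lower entries, and the lowest bin 1 higher and 16 lower. Across 11801 entries of the same 2 libraries Spearman's rho was 0.59, given as a description. In the fresh pair with DMSO the medians ran the other way, from 0.04 to -0.06, and in the fresh pair in medium they ran from -0.11 to 0.08. After the log2 ratios were centred on GC content, 35 of the 90 higher and 41 of the 56 lower entries were still past 1.5-fold, of 139 with a value. EGR1 (-1.13), FOS (-1.01), FOSB (-0.69), EGR3 (-0.61) and DNM3OS (-0.70) were among them. The part of GC content in the other differences was not tested.

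**Figure D3:**
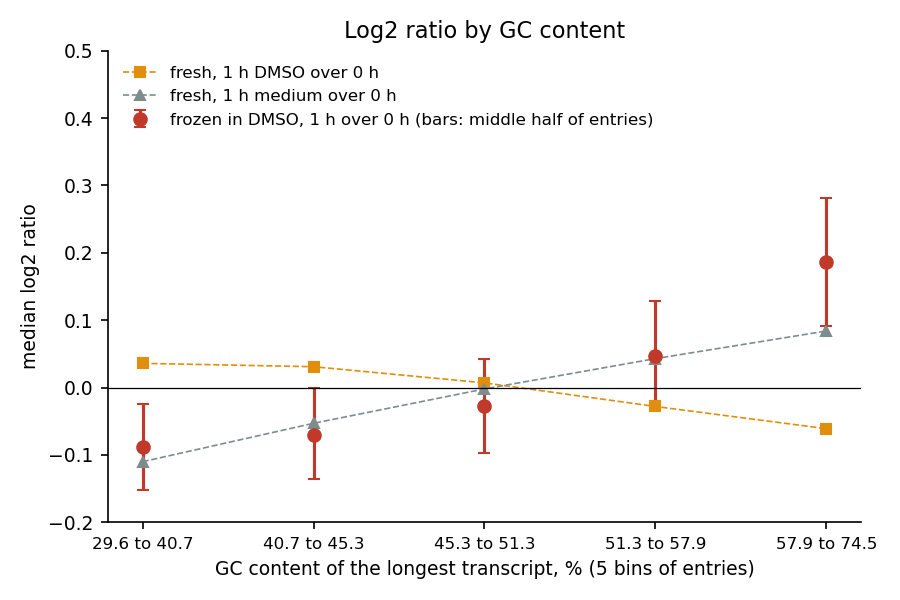
Median log2 ratio in 5 bins of equal size by GC content (%) of the longest transcript. Red circles are frozen in DMSO, 1 h over 0 h, with bars over the middle 50% of entries, orange squares fresh 1 h DMSO over fresh 0 h, and grey triangles fresh 1 h medium over fresh 0 h. The red medians go from -0.09 to 0.19, while the orange ones go from 0.04 to -0.06.

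Weak entries close to strongly expressed genes were sought by position. A weak entry had at most a 20th of its neighbour's level per kilobase and lay within 10 kb of it without overlap. Past the 3′ end of such a neighbour on the same strand lay 88 weak entries, of which 8 were higher (9.09%) and 2 lower (2.27%). Past the 3′ end on the other strand lay 123, with 6 higher (4.88%) and 1 lower (0.813%). Before the 5′ start lay 150, with 5 higher (3.33%) and 0 lower. The backgrounds were 0.749% and 0.466% over all entries, and 2.96% and 1.80% over entries with counts of 100 to under 500. The medians of the log2 ratio were 0.14, 0.06 and 0.00 in the 3 positions, and 0.04, 0.03 and -0.04 after centring on GC content. The GC content of the weak entries had medians of 57.8%, 55.4% and 53.7% in that order.

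Past the 3′ end on either strand, 208 weak entries held 14 higher (6.73%) and 3 lower (1.44%). After centring on GC content 9 of 202 were higher (4.46%). Of the 14, 9 reached a count of 100 at 1 h only, where they were high, so they passed the minimum only through their higher side. Of the 208, 39 reached it in only 1 library. Over all entries, 26 of the 90 higher ones and 251 of the 12014 reached the minimum in only 1 library. Among entries with at least 100 in both libraries, 64 of all 11763 were higher (0.544%). How far the shares higher in this class rest on the minimum was not tested. A stricter limit of a 100th of the neighbour's level left 33 entries with 4 higher (12.1%) and 0 lower. The 4 were SGCA, FTCD, LOC100505576 and SEMA4A, and FTCD and SEMA4A reached a count of 100 at 1 h only. The median log2 ratio of the 33 was 0.04, against 0.077 at the main limit.

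SGCA lies 8.16 kb past the 3′ end of COL1A1, on the opposite strand (chromosome 17, SGCA 48243366 to 48253293 and COL1A1 48261457 to 48279000 in hg19). COL1A1, the major collagen chain of these cells, had 1760 times the level of SGCA per kilobase. COL1A1 was at 29940 CPM at 0 h and 37120 at 1 h, a log2 ratio of 0.31, against 1.62 for SGCA. In the other libraries SGCA was at 1.08 CPM in fresh 0 h cells, 0.583 in medium, 5.12 with DMSO, and 0.929, 1.03 and 1.11 in SGC, SGI and SMC. The 3 libraries with DMSO were the 3 highest of the 8, and the other 5 did not exceed 1.11 CPM. Per 100000 counts of COL1A1, SGCA had 18.8 counts at 1 h and 7.46 at 0 h frozen in DMSO, 17.6 in fresh cells with DMSO, and 1.92 to 3.39 in the other 5. The 3 libraries with DMSO thus kept their order when the level of COL1A1 was divided out, while SMC went from the highest of the other 5 to the second lowest.

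HILS1, a histone pseudogene inside the span of SGCA, had the same 3 libraries on top. It lies beyond 10 kb of COL1A1, so it was not among the weak entries counted above. It was at 3.06 CPM in fresh cells with DMSO, 2.39 and 1.68 CPM at 1 h and 0 h frozen in DMSO, and 0.535 to 0.868 CPM in the other 5. Reads of SGCA and HILS1 where they overlap cannot be told apart. SAMD14, farther past COL1A1, was at 10.4 and 13.3 CPM, and at 10.6 to 13.4 CPM in the other 6 libraries. PPP1R9B was at 116 and 130 CPM, and at 114 to 125 CPM in the other 6. Neither had the 3 libraries with DMSO on top. Whether the reads in SGCA came from run-on transcription of COL1A1 or from SGCA itself was not tested. A count per gene holds no positions.

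**Figure D4:**
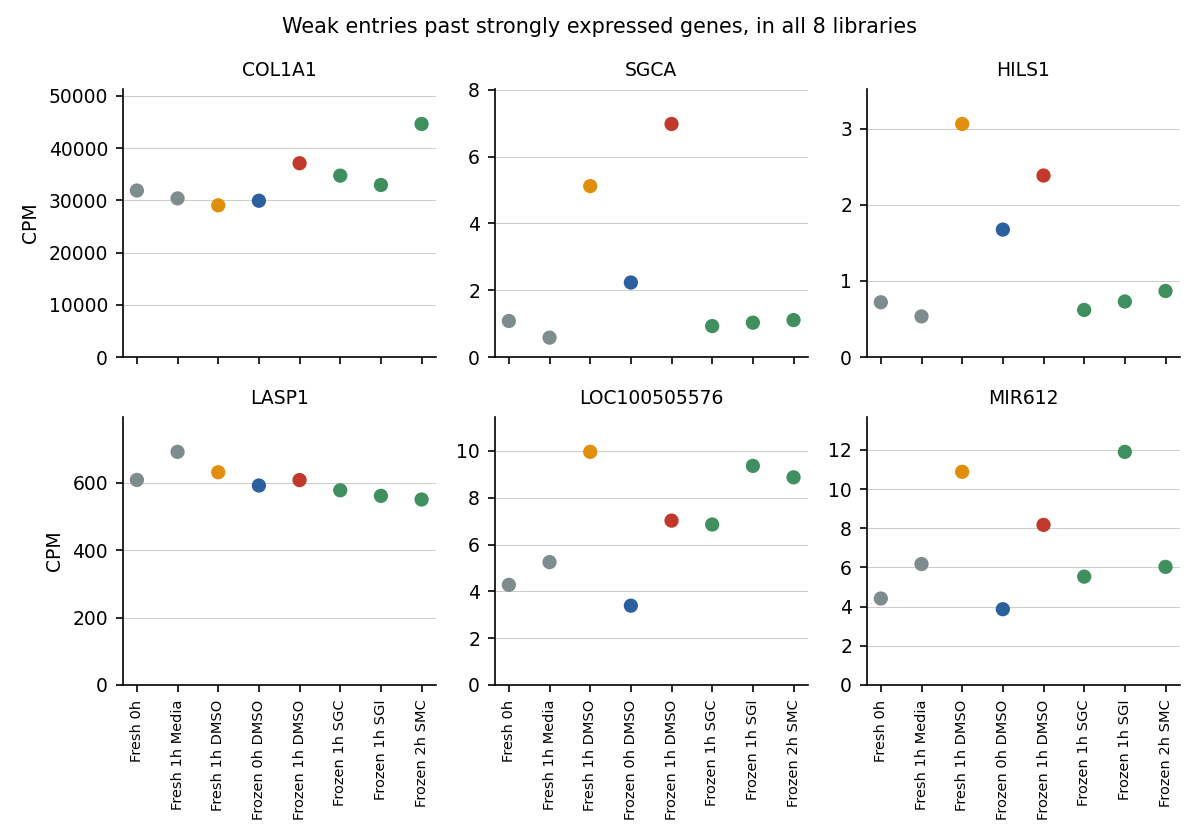
CPM in each of the 8 libraries of 2 strongly expressed genes, COL1A1 and LASP1, and of entries past strongly expressed ones. These are SGCA and HILS1 past COL1A1, LOC100505576 past LASP1, and MIR612 past the short NEAT1 entry. MIR612 was not a weak entry beside NEAT1. SGCA was at 6.98 CPM in frozen 1 h DMSO (red), 5.12 in fresh 1 h DMSO (orange), 2.23 in frozen 0 h DMSO (blue) and at most 1.11 in the other 5.

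LOC100505576, now LASP1NB, begins 3.40 kb past LASP1, an actin-binding protein gene, on the same strand. Its counts were 170 and 318, or 3.39 and 7.02 CPM, 2.07-fold higher (1.58 to 2.73), while LASP1 was at 592 and 608 CPM. The other libraries did not fall by solution as for SGCA: it was at 4.28 CPM in fresh 0 h cells, 5.25 in medium, 9.96 with DMSO, and 6.86 to 9.36 in the osmolyte solutions. The 0 h libraries, fresh and frozen, were the lowest of the 8.

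MIR612 is the 100-base hairpin of miR-612 at 65211929 to 65212028 on chromosome 11. It lies past the end of the short NEAT1 entry of this table, within the region known to be covered by the long NEAT1 isoform. Reads of that isoform and of the microRNA precursor cannot be told apart. MIR612 had counts of 194 and 370, or 3.87 and 8.17 CPM, 2.11-fold higher (1.64 to 2.73), while the NEAT1 entry was at 319 and 280 CPM. Fresh cells had 4.41 CPM of MIR612 at 0 h, 6.17 in medium and 10.9 with DMSO, and the osmolyte libraries 5.53 to 11.9. Per 100000 counts of NEAT1 it had 2910 counts at 1 h and 1210 at 0 h, against 3290 in fresh cells with DMSO and 947 to 1730 in the other 5.

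Other weak entries past a neighbour differed in their order of libraries. SEMA4A, a semaphorin 9.86 kb past LMNA, had counts of 88 and 132, 1.66-fold higher, with an interval from 1.118 to 2.49. It was highest in fresh cells with DMSO, at 4.16 CPM, against 1.80 in fresh 0 h cells and 1.65 in medium, but SMC, at 3.33 CPM, also exceeded the frozen 1 h DMSO value of 2.92. FTCD, an enzyme of histidine breakdown that lies 3.41 kb past COL6A2, had counts of 48 and 100, 2.31-fold higher (1.39 to 3.93). COL6A2 was at 2770 and 3513 CPM. In fresh cells with DMSO FTCD was at 1.55 CPM, against 1.85 in fresh 0 h cells. KIAA1683, 5.24 kb past JUND, had counts of 84 and 172, and CDC42BPG, 8.17 kb past EHD1, and NPEPL1, 9.60 kb past STX16, had 66 and 116 each. CDC42BPG was highest in the 2 libraries held for 1 h with DMSO, at 2.56 CPM frozen and 2.51 fresh, against 1.32 to 1.85 in the other 6. KIAA1683 was at 3.80 CPM frozen and 3.06 fresh with DMSO, and NPEPL1 was highest in fresh 0 h cells, at 2.97 CPM. On the other side, TMPRSS9, 2.08 kb past LMNB2, was at 2.23 and 1.37 CPM (1.63-fold lower, 1.03 to 2.62), and ANKAR lies 5.15 kb past ASNSD1, which was at 54.5 and 47.6 CPM. IMPG2, 3.70 kb past SENP7, had counts of 134 and 82, and its interval reached 1 (0.99 to 2.23).

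Few members of the gene lists differed by 1.5-fold. Of 714 different members of 35 lists that were compared, 2 were higher, SPRED3 and GADD45B (against 0.749% of all entries), and 5 were lower, EGR1, FOS, FOSB, EGR3 and CCNE2 (against 0.466%). No member passed 1.5-fold in 31 lists. The median log2 ratio lay within 0.1 of 0 in 27 of the 35. SPRED3, an inhibitor of RAS to MAP kinase signalling, had counts of 102 and 150 and lies 6.47 kb past PSMD8, at 97.7 and 103 CPM. CCNE2, the cyclin E2 that drives entry into S phase, was at 8.61 and 5.65 CPM.

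Among lists with at least 7 compared members, the highest medians were those of the extracellular matrix and BMP lists. All 41 matrix genes were compared, and 35 had a log2 ratio above 0, with a median of 0.13, or 0.09 after centring on GC content. The median over all entries was -0.01. Of the matrix genes 0 passed 1.5-fold, against 1.22% of all entries, so 0 is usual for a list of this size. LOXL1, which crosslinks elastin, was at 300.3 CPM at 0 h and 396 at 1 h, and COL6A2 at 2770 and 3513. In the 17 compared genes of the BMP list, with 0 past 1.5-fold, the median was 0.15, or 0.08 after centring. ID1, a direct BMP target, was at 31.7 and 41.0 CPM, and the BMP antagonist NOG at 2.51 and 3.49 CPM. The matrix median in the fresh pairs was -0.14 with DMSO and -0.16 in medium.

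Lists of cell division and the proteasome had medians below 0. Over all entries the median was -0.01, or -0.04 with library totals, and 1.22% passed 1.5-fold. Of 28 mitotic genes 26 had a log2 ratio below 0, with a median of -0.14, or -0.09 after centring, and 0 past 1.5-fold. The mitotic kinase CDK1 was at 40.8 and 33.7 CPM, and the topoisomerase TOP2A at 216 and 182 CPM. The 27 S phase genes had a median of -0.09 with 1 lower, CCNE2. Of 31 proteasome genes 26 were below 0, with a median of -0.09, or -0.05 after centring, and 0 past 1.5-fold. The plot of list members shows these medians inside the 1.5-fold limits.

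Stress programmes lay near 0 and held no called member other than GADD45B in the p53 list. Over all entries 1.22% passed 1.5-fold either way, so few calls are usual for lists of this size. Heat shock chaperones (23 genes) had a median of -0.07, the unfolded protein response (21) -0.02, the ATF4 response (26) 0.02, p53 targets (22) 0.01, NRF2 targets (28) 0.01, hypoxia and glycolysis (28) -0.02, and osmotic stress genes (20) -0.02. The inducible chaperone genes HSPA1A and HSPA1B, near-identical copies that share reads, were at 7.30 and 8.66 CPM and at 16.8 and 20.1 CPM. HSPB1, a small heat shock protein, was at 122 and 161 CPM, a log2 ratio of 0.40, or 0.11 after centring. The inflammatory genes PTGS2, at 81.7 and 67.5 CPM, and IL6, at 5.10 and 4.06 CPM, stayed within 1.5-fold.

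**Figure D5:**
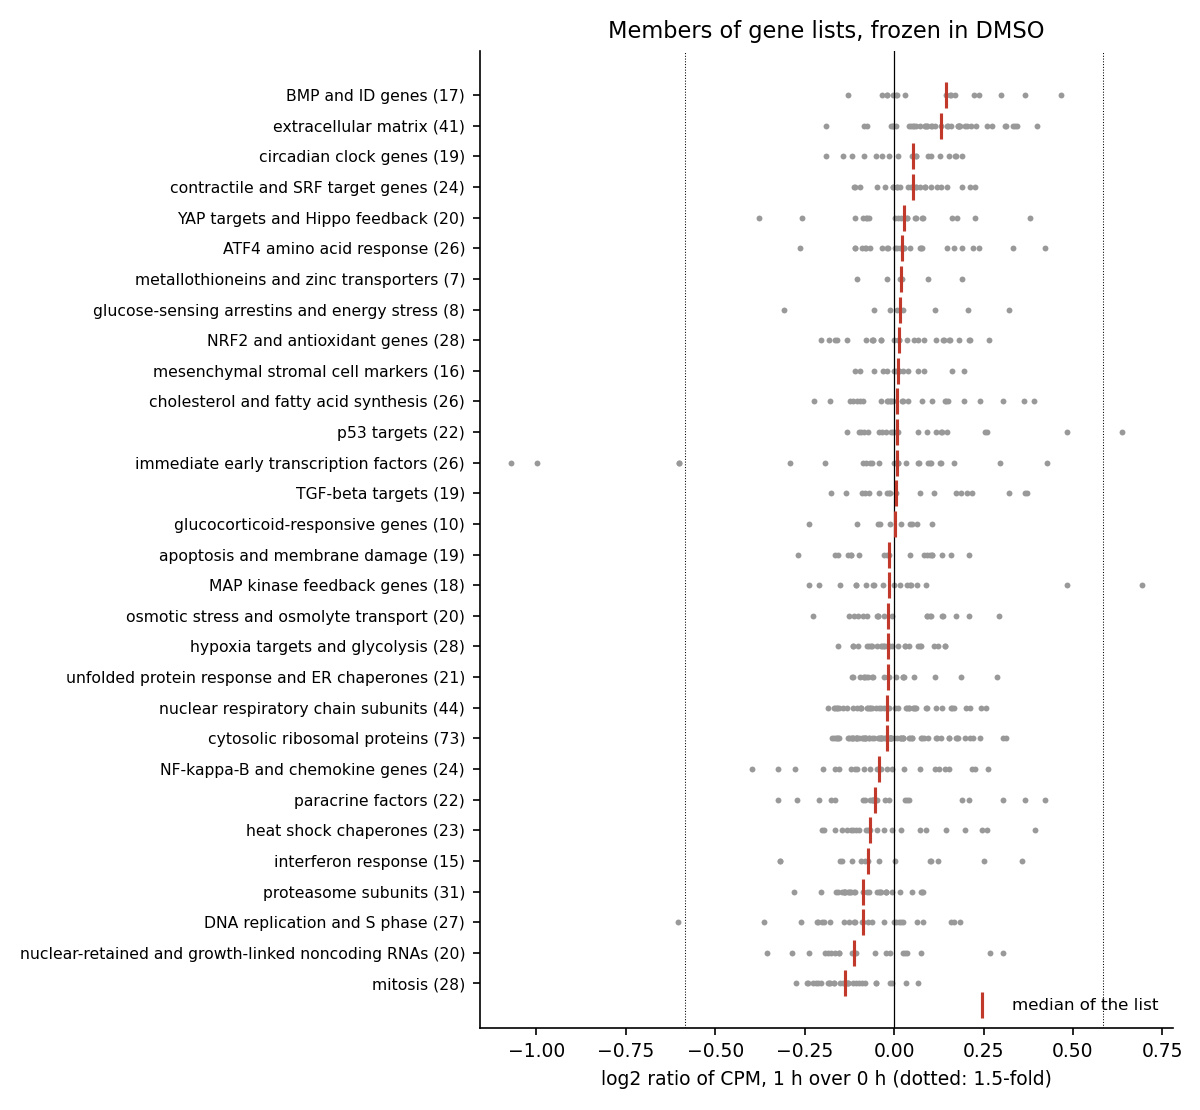
Log2 ratio of CPM, 1 h over 0 h frozen in DMSO, of each compared member (grey point) of the 30 gene lists with at least 7 compared members, whose number is in brackets, with the median as a red bar. Dotted lines mark 1.5-fold. Medians lie between -0.14 (mitosis) and 0.15 (BMP and ID genes), and EGR1 and FOS are the points near -1.

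Markers of mesenchymal stromal cells were present at like levels in both libraries. Of 18 such names 16 were compared, with 0 past 1.5-fold and a summed level of 11640 CPM in each library. The names not compared, CD105 and CD73, are protein names of ENG and NT5E, which were compared. THY1 was at 242 and 243 CPM, NT5E at 259 and 260 CPM, and ENG at 251 and 287 CPM. Of other cell types, 3 of 14 pluripotency markers reached a count of 100 (summed level of the list 19.2 and 18.0 CPM), and SOX2 had counts of 0 and 2. For endothelial markers it was 3 of 10 (70.4 and 66.7 CPM), mostly TEK at 52.3 and 47.8 CPM, with CDH5 at counts of 20 and 18. For blood it was 1 of 12 (4.07 and 4.90 CPM), with CD3E and HBB at 0 in both libraries. For epithelium it was 4 of 12 (1240 and 1262 CPM), nearly all KRT8 and KRT18, with CDH1 at counts of 14 and 30. For neural cells it was 1 of 12 (102 and 117 CPM), nearly all TUBB3, with SOX1 at 0 in both. MALAT1 and NEAT1, nuclear RNAs, made up 0.393% of counts at 1 h and 0.452% at 0 h.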

How the data were processed

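RNA sequencing was done on 8 libraries, 1 per condition, and 2 were compared here. Per the labels' protocols, a miRNeasy kit gave the total RNA. CASAVA 1.9, TopHat (version given as 12.0.6), HTSeq and the build hg19 were used, per the submitters' processing notes. For strand setting and annotation release, the sources used here give nothing. The authors deposited 1 count and 1 RPKM value per gene and library, per the file headers. All deposited counts are even (0 odd values), for a reason not given, so intervals treat each count as entered in units of 2. The deposited RPKM values served only to recover library totals, of which counts were 73.0% at 1 h and 72.1% at 0 h. Of 23398 entries, 49 identifiers were repeated. Of these, 41 identical ones were kept once and 8 as separate entries, which left 23354. Values of other series were absent, with 0 unmapped columns.

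CPM used factors of the trimmed mean of M-values (TMM) over all 8 libraries from edgeR 4.0.16 in R 4.3.3, with a prior count of 2 for log2 ratios. Ratios have exact conditional 95% intervals. The calculation was tested on simulated data. With 1 library a side no test was run, and p-values would need replicates. Alternatives were library totals, DESeq2 1.42.0 size factors, TMM over the 2 libraries, prior counts of 0.5 and 10, other count minimums, a 2-fold limit and other neighbour limits. Centring on GC content (log2 ratio minus the median of its bin among 20 bins of GC content of the longest GENCODE transcript) and leaving out overlapping entries were chosen after seeing the data. GENCODE and RefSeq on GRCh38 were used for names, strands, biotypes, GC content and sequences only. Positions are those deposited in hg19. No genome of that build was used here.

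Named genes were, among entries whose interval excluded 1, the 12 largest rises and 12 largest falls and the 10 largest each way at counts of 2000 or more. Among all compared entries they were the 4 members of each list with the largest absolute ratio and the 6 largest rises and 4 largest falls past a neighbour. Some genes named by these rules, most of them list members, are not reported here. Other names are said to be chosen after their values were seen, or are members of lists and loci. The members, the 35 lists and these rules were chosen with earlier results of these data known. Separate cultures are not named in the labels.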

Additional observations from a re-analysis of the deposited data

Results flagged for a closer look

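5 named entries moved one way after 1 h in DMSO, frozen and fresh, and the other way in fresh cells after 1 h in medium. The differences were not tested, and each ratio is between single libraries. SGCA, beside COL1A1, had a log2 ratio of 1.62 in frozen cells, 2.20 in fresh cells with DMSO and -0.84 in fresh cells in medium. EGR1 had -1.07, -2.12 and 1.06 in the same order. FOSB had -0.60, -2.78 and 1.1, and EGR3 had -0.60, -2.03 and 1.03. LOC284454, which starts at the hairpin of MIR24-2, had -0.81, -2.80 and 0.70. The fresh ratios share the fresh 0 h library.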

How the results depend on the processing

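With 1 library a side, leaving out a replicate was not possible. No paired analysis was possible because each condition has 1 library and the labels carry no replicate numbers. Of the 146 entries past 1.5-fold, 125 were kept with library totals, 141 with DESeq2 size factors, 146 with TMM over the 2 libraries, 146 and 117 with prior counts of 0.5 and 10, and 76 of 139 after centring on GC content, which left 39 higher in all. Library totals moved the median log2 ratio of all entries from -0.01 to -0.04. With no count minimum 1861 entries were higher and 1507 lower, most of them at few counts. With a minimum of 500 there were 11 and 8, and at 2-fold 10 and 3. Centring moved the median of 4 epithelial markers to -0.15 and the value of the 1 neural marker to 0.054. Of weak entries past a neighbour's 3′ end, centring left 4.46% higher. A limit of a 100th of the neighbour's level gave 4 of 33 higher (12.1%) and 0% lower, with a median log2 ratio of 0.04. These alternatives reversed the direction of 0 named entries past 1.5-fold. Depth limits entries near a count of 100, where a 1.5-fold difference can lie within counting error. Differences between cultures, and between the conditions and single libraries, cannot be told apart.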
